A study of Mus musculus with 4 samples.

Results

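Bone morphogenetic proteins (BMPs) and the secreted proteins that block them were followed across the cell types of the mouse ovary and across 4 treatments. The 8 genes were 5 ligands (Bmp2, Bmp4, Bmp5, Bmp6 and Bmp7) and 3 antagonists (Grem1, Nog and Chrdl1), taken by gene symbol from the 32285 genes counted. BMPs are dimeric growth factors of the TGF-β family. They bridge type I and type II receptors, which phosphorylate a shared set of receptor SMAD proteins, and these switch on target genes such as the Id genes and the inhibitory SMADs. Gremlin, noggin and chordin-like proteins bind the ligands outside the cell and keep them from the receptors. In the ovary, theca cells, granulosa cells and oocytes all make BMPs, which are known to act on follicle growth and on steroid synthesis. Anti-Müllerian hormone (AMH), made by granulosa cells of growing follicles, is a related ligand that has its own type II receptor, AMHR2, but uses the BMP type I receptors and the same receptor SMADs.

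The libraries came from ovaries of mice aged 25 postnatal days, taken 4 hours after the last of 2 weekly doses. The control group received PBS or saline, the second group doxorubicin at 3 mg/kg, the third both doxorubicin (3 mg/kg) and AMH (0.75 mg/kg, the recombinant human protein), and the last AMH at 0.75 mg/kg alone. These libraries are called control, doxorubicin, doxorubicin+AMH and AMH, and wherever 4 values follow each other they stand in that order. Doxorubicin is an anthracycline that damages DNA. Strain and route of dosing are not given in the sources used here. For each group 1 ovary from each of 5 animals was pooled, dissociated and run as 1 droplet library of 3′ transcript ends, so differences between animals or between dissociations were not measured and no p-value is given. All intervals are 95% and cover counting error only.

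Grem1 and Bmp6 were the members with a difference of at least 2-fold between libraries among the whole-type comparisons that passed a mean of 5 CPM (a measure of level defined with the values that follow), so the 250 bases upstream of their RefSeq starts (assembly GRCm38.p6) are shown, 5′ to 3′ in the sense of the gene. Capitals mark GGCGCC, a GC-rich element that receptor SMADs of the BMP branch can bind. Grem1 is on the minus strand (chr2:113758649-113758898) and Bmp6 on the plus strand (chr13:38345466-38345715). The GENCODE M21 annotation starts Bmp6 earlier, at 38345107, so the Bmp6 window is upstream of the RefSeq start but inside the gene as annotated there.
Grem1: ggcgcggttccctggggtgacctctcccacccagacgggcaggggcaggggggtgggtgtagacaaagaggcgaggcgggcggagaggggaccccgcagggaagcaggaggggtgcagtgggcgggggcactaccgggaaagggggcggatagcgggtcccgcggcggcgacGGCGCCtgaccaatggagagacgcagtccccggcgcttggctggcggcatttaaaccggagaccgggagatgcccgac
Bmp6: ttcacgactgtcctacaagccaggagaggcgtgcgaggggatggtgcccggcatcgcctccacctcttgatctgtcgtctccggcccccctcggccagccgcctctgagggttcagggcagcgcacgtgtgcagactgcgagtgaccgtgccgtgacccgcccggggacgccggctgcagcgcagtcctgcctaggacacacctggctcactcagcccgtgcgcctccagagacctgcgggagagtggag
The Grem1 window held 1 GGCGCC, whose first base lay 78 bases before the start, and the Bmp6 window held none. Both strands were searched, and 9.59% of 32851 promoter windows of the same length held the element. The steroidogenic factor motif AAGGTCA was in neither window, nor in those of Bmp4 and Bmp5, and 4.08% of all windows held it. The GC content was 72.0% for Grem1 and 68.8% for Bmp6, against a median of 52.4% over all windows. The promoter table matched 4 of the 8 members. A match of letters is a description of the window and not of a bound site.

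The deposited libraries held 7141 to 9478 cells and 138647495 to 178279122 UMIs (molecular tags that count each captured transcript once). After filtering, 28631 of 33639 cells were kept, and they fell into 32 clusters, of which 28 were named by marker genes as 11 cell types. Any 2 libraries shared 11 to 24 cell barcodes. The libraries stood apart in several ways. Oviduct-type epithelial-like cells numbered 157, 2, 45 and 225. Of 181 granulosa-like cells in the cluster led by B230209E15Rik 180 came from the doxorubicin library, as did 82 of the 86 in the cluster led by Amh. Theca-like cells sat in different clusters by AMH treatment, as given below with the Bmp6 values. Among tissue-handling stress genes, Hspa1a and Hspa1b were at least 2-fold higher in AMH than in control in 5 of the 6 types compared, and in granulosa-like cells Hspa1b was. A cluster of 630 barcodes led by the oocyte genes Ooep and Dppa3 had a median of 2997.5 UMIs and stayed unnamed under the marker rule, so no levels are given for oocytes, which are a known source of BMPs.

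In the GENCODE M21 annotation of mm10, Bmp2 lies on chromosome 2 from 133552159 to 133562885, Bmp7 on chromosome 2 from 172868012 to 172940321 and Grem1 on chromosome 2 from 113746164 to 113758646. Bmp4 lies on chromosome 14 from 46383520 to 46390669, Bmp5 on chromosome 9 from 75775364 to 75900310 and Bmp6 on chromosome 13 from 38345107 to 38500302. Nog lies on chromosome 11 from 89300638 to 89302332, and Chrdl1 on chromosome X from 143285674 to 143394262. Exons of Bmp4, Bmp5 and Bmp6 overlap genes annotated on the other strand (Gm15217, Gm26903 and Txndc5). Whether the counting used strand is not given in the sources used here, so reads of such pairs may not be told apart. Gm47723 lies on the same strand as Bmp5 and overlaps its span, though not its exons. Use of strand would not separate reads of that pair.

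Levels are given as CPM, the UMIs of a gene per 1000000 UMIs summed over the cells of a type in a library, and are compared across cell types and libraries within a gene, not between genes. Bmp2, a ligand known for bone and follicle development, was highest in theca-like cells, at 116, 109, 138 and 93.0 CPM. Granulosa-like cells followed, at 72.0, 49.2, 49.6 and 79.8 CPM. Over the whole types the theca-like values lay above the granulosa-like values in every library and the ranges did not overlap. Clusters within the types, given below, did not all keep this order. Below granulosa-like cells came macrophage-like cells (39.8 to 55.8 CPM), stroma-like cells (31.2 to 59.1 CPM), blood endothelial-like cells (23.1 to 38.3 CPM) and mural smooth muscle-like cells (13.0 to 30.7 CPM), each of whose ranges overlapped the next. In erythroid-like cells, which should lack Bmp2, 1 to 3 UMIs were counted in each library, or 2.84, 7.43, 5.48 and 16.3 CPM, and the last of these lies within the range of mural smooth muscle-like cells. Because granulosa-like cells were many and deep, they gave 45.0% to 59.2% of all Bmp2 UMIs, against 17.2% to 34.3% from theca-like cells.

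Bmp4, a ligand of mesenchymal tissue that theca and stroma are known to make, was measured in stroma-like, vascular and surface epithelial-like cells. Its mean over libraries was 24.7 CPM in stroma-like cells, 24.6 CPM in lymphatic endothelial-like cells and 23.9 CPM in surface epithelial-like cells, and these ranges overlapped. The stroma-like values were 27.2, 18.7, 24.3 and 28.4 CPM. Mural smooth muscle-like and blood endothelial-like cells lay at 12.0 to 16.3 and 9.01 to 20.03 CPM. A gap without overlap separated these 5 types from theca-like cells, at 2.23 to 3.33 CPM, and granulosa-like cells held at most 2.15 CPM. Stroma-like cells gave 53.9% to 66.3% of all Bmp4 UMIs.

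Bmp6, which also acts on iron balance in the liver, had its highest level in surface epithelial-like cells, at 133, 157, 177 and 131 CPM. These cells numbered 44 to 111 per library. Theca-like cells held 102, 77.8, 12.3 and 11.1 CPM, a range that spans the 34.0 to 43.4 CPM of granulosa-like cells. The order of theca-like and granulosa-like cells therefore differed by library: theca-like cells were higher in both libraries without AMH and lower in both with it. Theca-like cells gave 44.5% and 31.0% of all Bmp6 UMIs in control and doxorubicin, and 6.69% and 6.03% in doxorubicin+AMH and AMH. Lymphatic endothelial-like cells followed at 15.4 to 24.4 CPM, and stroma-like cells held 4.99 to 6.04 CPM. Erythroid-like cells held 19.9, 2.48, 5.48 and 0 CPM of Bmp6 on 7, 1, 2 and 0 UMIs, where 0 UMIs allow up to 16.3 CPM. That range spans the stroma-like one, and Bmp6 in stroma-like cells is not read as above free RNA.

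Bmp7, an epithelial and mesenchymal ligand, was measured mainly in stroma-like cells, at 11.2, 9.48, 15.7 and 17.1 CPM, from which 52.8% to 69.0% of its UMIs came. T or NK lymphocyte-like cells had a mean of 14.3 CPM, resting on 4 to 9 UMIs per library, and overlapped the stroma-like range. Bmp5, related in sequence to Bmp6 and Bmp7, was sparse, with 50 to 82 UMIs per library in all. It had a mean of at most 3.34 CPM in any type, and no ratio of Bmp5 over a whole cell type is read here.

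Grem1, which encodes gremlin, was the member most restricted to 1 type: granulosa-like cells gave 94.4% to 95.9% of its UMIs in each library. They held 10.0, 9.81, 26.8 and 23.1 CPM, and the mean of every other type was 1.98 CPM or less, without overlap. In erythroid-like cells 0 or 1 Grem1 UMI was counted per library. Nog, the noggin gene, was low, with its highest mean in granulosa-like cells (3.20 CPM), mural smooth muscle-like cells next (2.80 CPM) and then stroma-like cells (1.48 CPM), and the first 2 ranges overlapped. Chrdl1, which encodes chordin-like 1, was shared by mural smooth muscle-like cells (25.4, 24.2, 18.5 and 18.0 CPM) and granulosa-like cells (13.4, 11.1, 17.7 and 20.01 CPM). In theca-like cells each of the 3 antagonists lay at or below 0.913 CPM in every library.

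**Figure D1:**
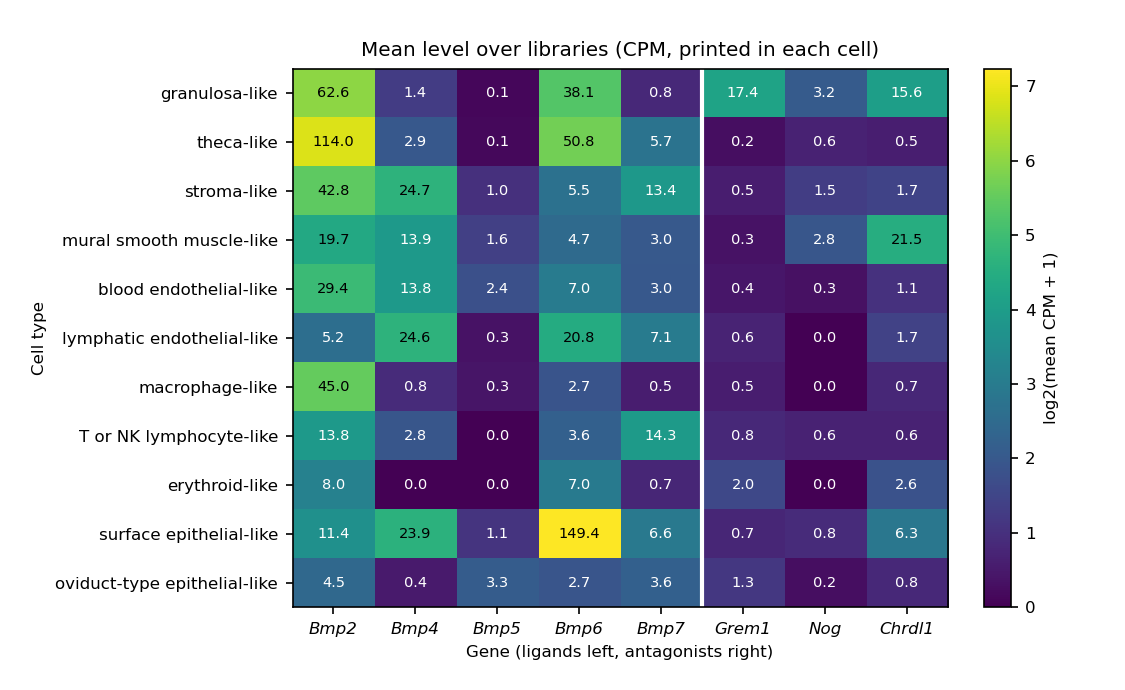
Mean CPM of each member (columns, 5 ligands then 3 antagonists) in each cell type (rows) over the 4 libraries, or 3 for oviduct-type epithelial-like cells, coloured by log2(mean CPM + 1) and printed in each cell. Grem1 is at 17.4 CPM in granulosa-like cells and at 1.98 CPM or less elsewhere, and Bmp2 peaks in theca-like cells at 114.0 CPM.

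Treatment was compared in 6 cell types with at least 50 cells in every library. Ratios are doxorubicin over control and doxorubicin+AMH over AMH, which share no library, and AMH over control and doxorubicin+AMH over doxorubicin, which also share none. Ratios from different pairs do share libraries. A ratio was counted as called when log2(CPM + 1) differed by at least 1 (2-fold) in a gene with a mean of at least 5 CPM, and folds in the text are ratios of CPM. Of 48 pairs of member and cell type, 18 passed that mean: 6 for Bmp2, 4 for Bmp6, 3 for Bmp4, 2 each for Bmp7 and Chrdl1, 1 for Grem1 and 0 for Bmp5 and Nog. Among these 18, 1 was called in doxorubicin over control, where 1.99% of all genes tested over the 6 types were called. None was called in doxorubicin+AMH over AMH (background 2.28%), 2 in AMH over control (background 2.92%) and 3 in doxorubicin+AMH over doxorubicin (background 4.26%). The calls were Grem1 in granulosa-like cells, Bmp6 in theca-like cells and Bmp6 in blood endothelial-like cells. The last pair passed the mean only through the doxorubicin library, where it was highest (6.97 CPM over 4 libraries, 4.37 CPM without that one), so it had to differ and both of its calls are descriptions.

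**Figure D2:**
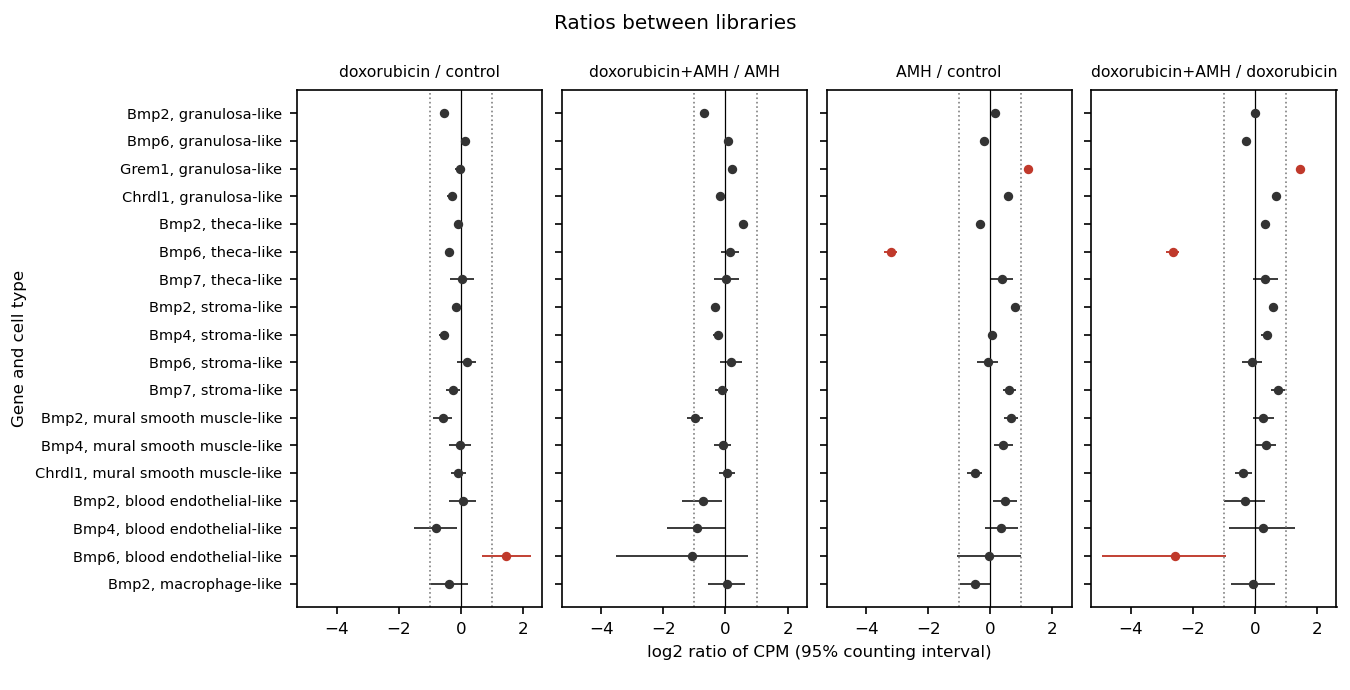
Log2 ratio of CPM (x axis) for the 18 pairs of member and cell type that passed the mean of 5 CPM (y axis), in 4 panels for the 4 contrasts. Points are ratios, bars are 95% counting intervals, dotted lines mark 2-fold, and red marks the called ratios: Grem1 is to the right in both AMH contrasts in granulosa-like cells and Bmp6 to the left in theca-like cells.

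In granulosa-like cells all 3 antagonists were higher with AMH, with and without doxorubicin. Grem1 was 2.31-fold higher in AMH than in control (interval 2.10 to 2.53) and 2.73-fold higher in doxorubicin+AMH than in doxorubicin (2.48 to 3.01). It rested on 628, 568, 1623 and 1631 UMIs, and both libraries with AMH lay above both without. In these cells 0.16% and 0.188% of all genes tested were at least 2-fold higher in these contrasts. Doxorubicin over control was 0.980-fold (0.874 to 1.10). The Grem1 ratio of AMH over control sat near the limit: its log2(CPM + 1) difference of 1.13 became 0.90 with a pseudocount of 5 CPM and just under 1 with each cell weighted equally, so the call was lost there.

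Nog, with 84, 113, 331 and 286 UMIs, was at 1.34, 1.95, 5.46 and 4.04 CPM in granulosa-like cells. Its ratio was 3.02-fold (2.36 to 3.90) for AMH over control and 2.80-fold (2.25 to 3.49) for doxorubicin+AMH over doxorubicin. Nog did not pass the mean of 5 CPM and was not counted as called. It was also higher in doxorubicin than in control (1.46-fold, 1.09 to 1.96) and in doxorubicin+AMH than in AMH (1.35-fold, 1.15 to 1.59). Chrdl1 was 1.49-fold higher in AMH than in control (1.37 to 1.63) and 1.61-fold higher in doxorubicin+AMH than in doxorubicin (1.45 to 1.77), under the 2-fold line. Together the 3 antagonists summed to 24.8, 22.8, 49.98 and 47.1 CPM.

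Among the ligands of granulosa-like cells, Bmp2 was lower in doxorubicin than in control (0.683-fold, 0.652 to 0.716; 2847 and 4517 UMIs) and lower in doxorubicin+AMH than in AMH (0.621-fold, 0.594 to 0.649; 3005 and 5644 UMIs). Both libraries with doxorubicin lay below both without it. The ratio of doxorubicin+AMH over doxorubicin was 1.01 (0.957 to 1.06). None of these ratios reached 2-fold. Bmp6 lay between 34.0 and 43.4 CPM in all 4 libraries, slightly lower with AMH (0.864-fold, 0.817 to 0.914, and 0.822-fold, 0.776 to 0.871).

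Bmp4 and Bmp7 were low in granulosa-like cells and lower with AMH, and Bmp4 was also lower with doxorubicin. Bmp7 had 71, 84, 13 and 24 UMIs, which is 3.33-fold lower (2.07 to 5.54) in AMH than in control and 6.77-fold lower (3.75 to 13.2) in doxorubicin+AMH than in doxorubicin. Bmp4 had 135, 92, 34 and 100 UMIs, and was 1.52-fold lower (1.17 to 1.99) in AMH than in control and 2.83-fold lower (1.89 to 4.33) in doxorubicin+AMH than in doxorubicin. Within the 5 clusters described later Bmp4 was lower with AMH in 3 and higher in 2 for AMH over control, 1 interval excluding 1, and lower in 4 and higher in 1 for doxorubicin+AMH over doxorubicin, 2 intervals excluding 1. In doxorubicin over control Bmp4 was lower in 4 of these clusters and higher in 1, with 1 interval excluding 1. In doxorubicin+AMH over AMH it was lower in all 5, with 2 intervals excluding 1. Neither Bmp4 nor Bmp7 passed the mean of 5 CPM over the whole type. Of the Bmp7 UMIs 47, 45, 2 and 3 came from the cluster led by Cdh12, whose cells numbered 355, 298, 168 and 250, and 13 of the 84 in doxorubicin from the cluster led by Amh that was nearly confined to that library. The 5 ligands summed to 115, 95.7, 86.1 and 116 CPM.

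The share of granulosa-like cells with at least 1 Grem1 UMI was 11.1%, 11.1%, 22.2% and 19.8%. Median depth in these cells was 24385.5, 24088.5, 25336 and 21646 UMIs, so each cell was also thinned to 2000 UMIs, which left out 9, 11, 11 and 20 cells. After thinning, the Grem1 shares were 2.01%, 1.87%, 4.35% and 3.87%, in the same order of libraries with and without AMH. Thinned Bmp2 shares were 11.3%, 7.87%, 8.22% and 11.9%, again lower in both libraries with doxorubicin (43.8%, 32.3%, 32.8% and 41.2% before thinning). In erythroid-like cells 1.69% to 5.08% had a Bmp2 UMI before thinning, at median depths of 3928 to 6553 UMIs. For Grem1 the erythroid-like shares were 0%, 1.69%, 0% and 2.44%, and 0%, 1.85%, 0% and 3.23% after thinning, each from 0 or 1 cell, so the thinned Grem1 shares lie near this background.

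**Figure D3:**
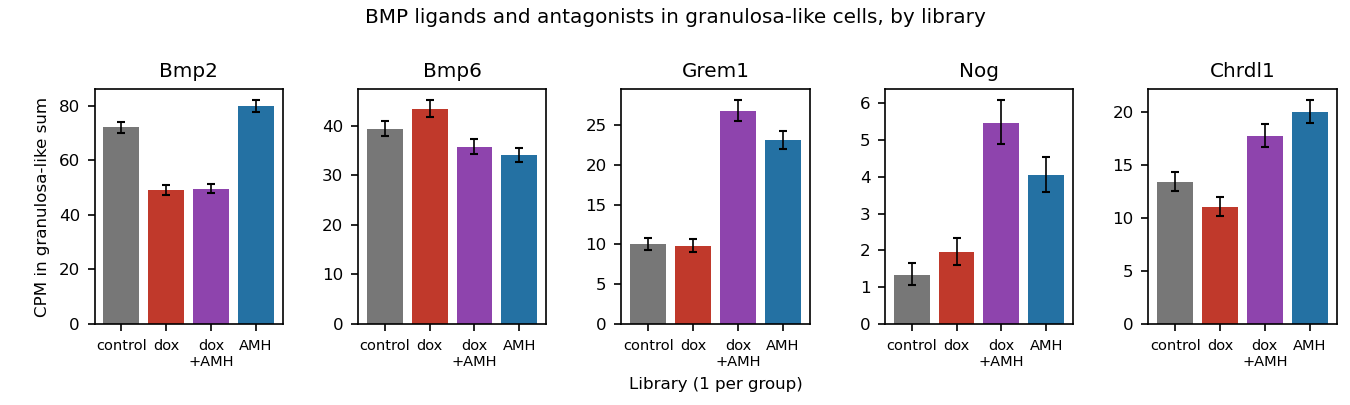
CPM of Bmp2, Bmp6, Grem1, Nog and Chrdl1 in granulosa-like cells (y axes, each from 0) in the 4 libraries (x axis). Bars are single libraries and error bars 95% Poisson intervals. The 3 antagonists are higher in both libraries with AMH, for Grem1 26.8 and 23.1 against 10.0 and 9.81 CPM, and Bmp2 is lower in both with doxorubicin.

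Granulosa-like cells held 5 clusters with at least 50 cells in every library, led by Gpc6, by Inhba, by the division genes Ube2c and Top2a, by Slc38a5, and by Cdh12. Grem1 was highest in the cluster led by Inhba, which encodes the activin βA subunit, at 27.9, 28.7, 66.4 and 42.3 CPM. That cluster had 313, 304, 494 and 569 cells, more in both libraries with AMH. Within clusters Grem1 was also higher with AMH: in AMH over control in 4 of 5 clusters, all 4 with intervals above 1, and in doxorubicin+AMH over doxorubicin in 5 of 5. In dividing cells led by Ube2c it was 12.4, 9.69, 22.2 and 29.0 CPM, and 2.34-fold (1.98 to 2.78) and 2.29-fold (1.88 to 2.80) higher with AMH. In these dividing cells 1.26% and 1.53% of all genes tested were called either way in those 2 contrasts. In the Cdh12 cluster Grem1 stayed under 2 CPM.

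Nog was higher with AMH in all 5 clusters in both contrasts. Its highest levels were in the cluster led by Slc38a5, at 4.03, 5.53, 9.77 and 9.66 CPM. In the Cdh12 cluster 4, 2, 24 and 27 UMIs were counted, 0.321, 0.182, 5.15 and 4.22 CPM, which is 13.1-fold (4.57 to 51.6) for AMH over control. Chrdl1 was higher with AMH in all 5 clusters too, by 1.34-fold to 1.78-fold for AMH over control and by 1.46-fold to 2.78-fold for doxorubicin+AMH over doxorubicin. It was highest in the cluster led by Gpc6, at 25.1, 25.5, 43.5 and 35.9 CPM.

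Bmp2 was lower in doxorubicin than in control in all 5 clusters, by folds of 0.354 to 0.806, 4 of them with intervals below 1. It was lower in doxorubicin+AMH than in AMH in all 5 as well, by folds of 0.592 to 0.899, 3 with intervals below 1. The cluster led by Gpc6 had the highest Bmp2, at 169, 137, 137 and 164 CPM. The lowest ratio of doxorubicin to control was in dividing cells, where Bmp2 was 21.8, 7.72, 19.9 and 23.3 CPM on 331, 102, 427 and 413 UMIs. There Bmp2 was 2.82-fold lower (2.25 to 3.56) in doxorubicin than in control, a call against 0.164% of all genes tested, and 0.855-fold (0.745 to 0.981) in doxorubicin+AMH over AMH. Bmp6 in the Cdh12 cluster ran against the whole type, at 27.3, 31.5, 45.1 and 39.4 CPM, higher with AMH by 1.44-fold (1.22 to 1.70) and 1.43-fold (1.20 to 1.70).

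**Figure D4:**
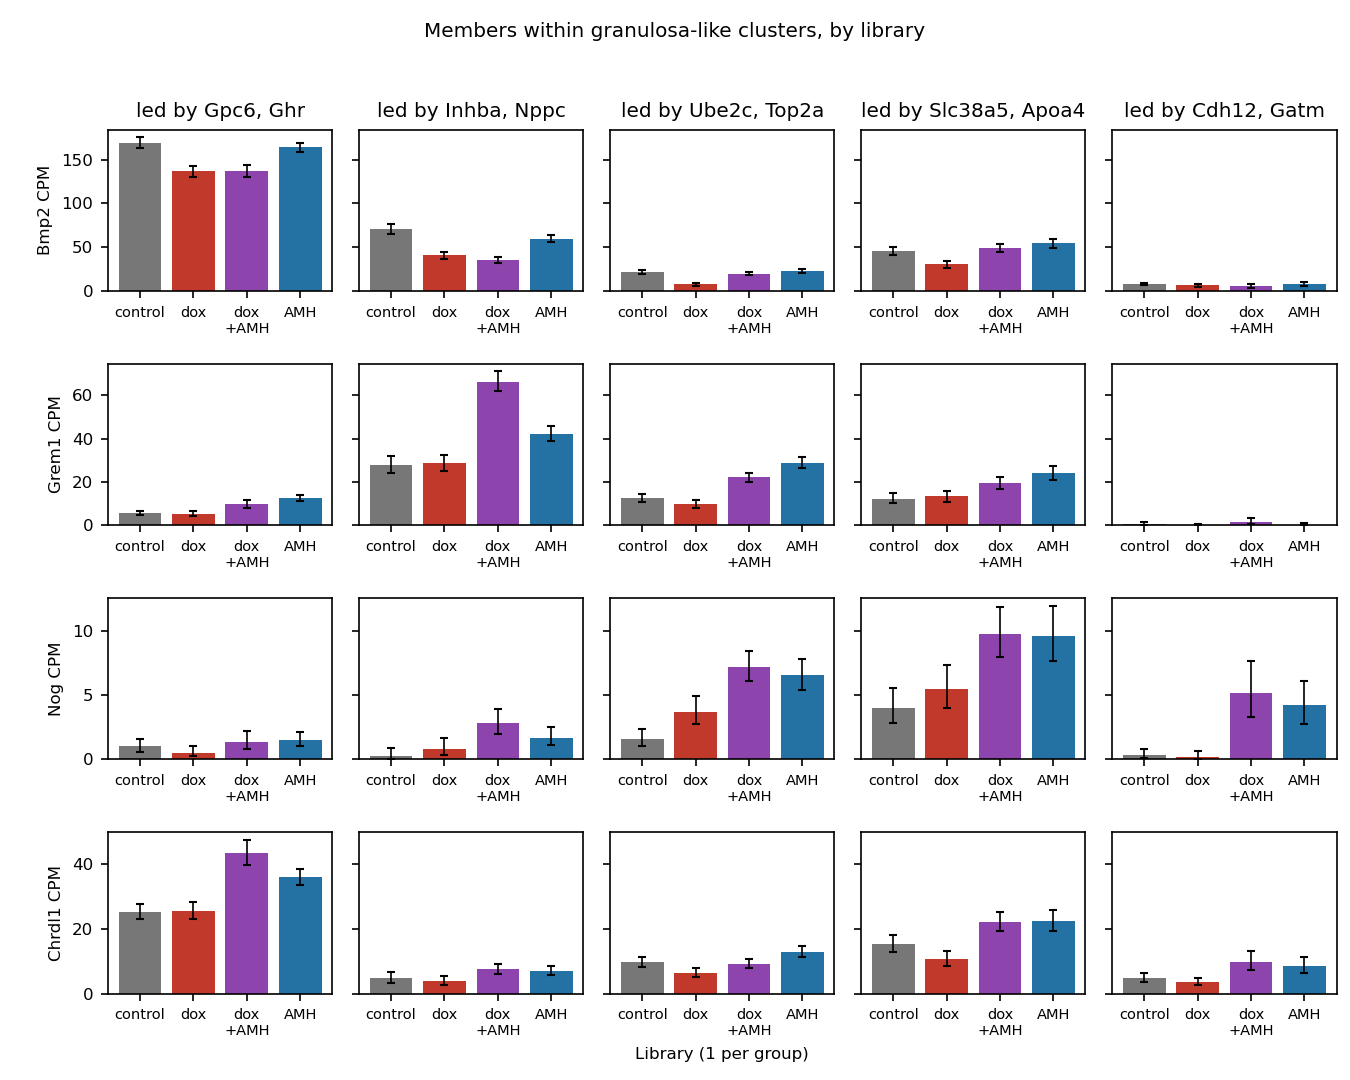
CPM of Bmp2, Grem1, Nog and Chrdl1 (rows, one y scale from 0 per row) in the 5 granulosa-like clusters with at least 50 cells in every library (columns, headed by their leading genes) in the 4 libraries (x axis). Bars are single libraries and error bars 95% Poisson intervals. Bmp2 in the cluster led by Ube2c is at 7.72 CPM in doxorubicin against 19.9 to 23.3 CPM in the other libraries.

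Other values of granulosa-like cells are set beside the Grem1 and Nog ratios. The marker list used to name granulosa cells summed to 4793, 4625, 6027 and 5017 CPM with all 8 genes detected in every library. Within it Hsd17b1, an oestradiol-synthesis enzyme, was 316, 384, 692 and 523 CPM, and Kctd14 was 279, 299.6, 82.0 and 73.0 CPM. Inha was 2263, 2246, 3511 and 2863 CPM, higher in both libraries with AMH as Hsd17b1 was. Fshr was 142, 133, 114 and 99.9 CPM, and Foxl2 90.8, 99.96, 62.6 and 68.8 CPM. Nr5a2 was 646, 485, 460 and 433 CPM, and Gatm 65.5, 65.3, 44.8 and 62.6 CPM. These last genes were lower in both libraries with AMH, as Kctd14 was. Serpine2 was 991, 912, 1061 and 893 CPM and followed neither order. The theca list in these cells summed to 879, 811, 1030 and 915 CPM. For 19 genes known to respond to tissue handling, the median log2 difference was -0.01 to 0.02 over the 4 contrasts. The part of cell makeup in the Grem1 and Nog ratios was not tested beyond the clusters above.

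In theca-like cells Bmp6 was the only one of the 3 members past the mean to be called. With 2676, 1537, 189 and 196 UMIs, it was 9.19-fold lower (7.94 to 10.7) in AMH than in control and 6.31-fold lower (5.42 to 7.38) in doxorubicin+AMH than in doxorubicin. Both libraries with AMH lay far below both without it. In theca-like cells 6.91% and 6.38% of all genes tested were called in these contrasts, and 3.53% and 3.42% were at least 2-fold lower, so many genes besides Bmp6 differed there. Doxorubicin over control was 0.762-fold (0.715 to 0.812). The share of theca-like cells with a Bmp6 UMI was 51.1%, 40.5%, 9.34% and 9.42%, and after thinning, which left out 5 to 45 cells per library, 16.1%, 9.53%, 1.54% and 1.14%. In erythroid-like cells, at the lower depths given above, the Bmp6 shares were 3.39%, 1.69%, 2.82% and 0% (0 of 41 cells in AMH), and 2.17%, 1.85%, 0% and 0% after thinning. The thinned theca-like shares with AMH lie at the level of these few cells, so no share of expressing cells is read from them.

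The theca-like cells of the libraries with and without AMH were largely different clusters. The cluster led by Cyp17a1 and Cyp11a1, enzymes of androgen synthesis, held 692, 435, 47 and 35 cells, and the cluster led by Prss35 held 36, 19, 528 and 722. The last cluster, led by Sct, which encodes secretin, held 146, 168, 142 and 135. Within the Cyp17a1 cluster Bmp6 was 114.1, 89.8, 32.9 and 23.2 CPM on 2588, 1480, 32 and 24 UMIs, which is 4.92-fold lower (3.30 to 7.70) in AMH than in control and 2.73-fold lower (1.92 to 4.00) in doxorubicin+AMH than in doxorubicin. Within the Prss35 cluster it was 111, 11.9, 6.75 and 8.95 CPM on 23, 3, 68 and 117 UMIs. The ratio of AMH to control there was 12.4-fold lower (7.56 to 19.5), and that of doxorubicin+AMH to doxorubicin, from 3 UMIs, 1.76-fold lower with an interval of 0.355 to 5.37 that includes 1.

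The Sct cluster did not share the difference: Bmp6 was 19.6, 17.9, 20.7 and 15.6 CPM, with ratios of 0.796 (0.545 to 1.16) and 1.16 (0.816 to 1.65). It was the single theca-like cluster with at least 50 cells in every library. When the comparison was limited to it, an alternative chosen after the data were seen, the log2(CPM + 1) difference of -3.09 for AMH over control became -0.31 and that of -2.56 for doxorubicin+AMH over doxorubicin became 0.20, and neither was called. In this cluster Bmp2 reached 261, 187, 303 and 205 CPM, above the other theca-like clusters in each library. The Cyp17a1 cluster held 95.3, 95.8, 160 and 102 CPM of Bmp2. The Prss35 cluster held 48.2, 51.6, 65.4 and 62.0 CPM, from 10 and 13 UMIs in control and doxorubicin. The granulosa-like cluster led by Gpc6 lay above the Prss35 cluster in every library, and above the Cyp17a1 cluster in all but doxorubicin+AMH.

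**Figure D5:**
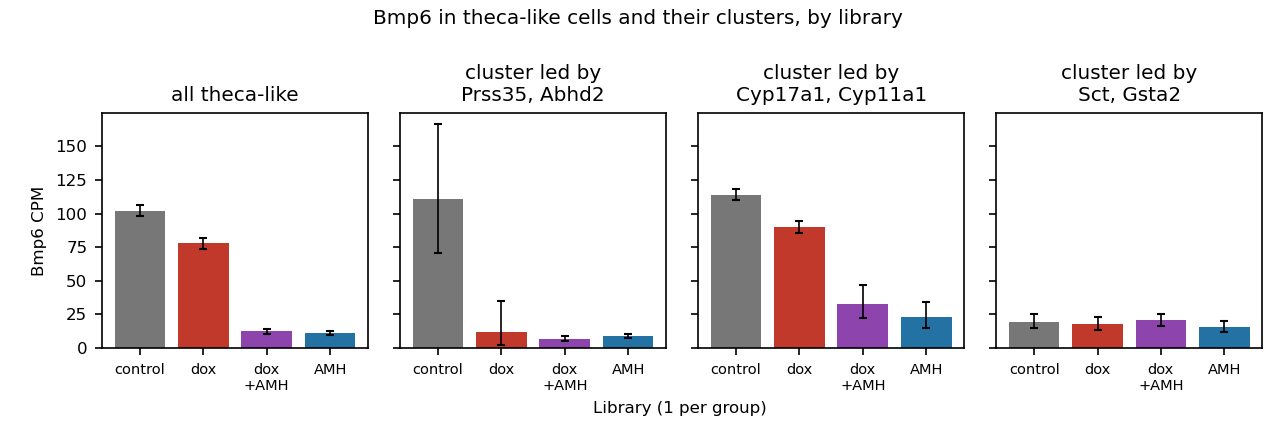
Bmp6 CPM (y axis, one scale from 0) in all theca-like cells and in their 3 clusters (panels, headed by leading genes) in the 4 libraries (x axis). Bars are single libraries and error bars 95% Poisson intervals. Bmp6 is lower with AMH in the cluster led by Cyp17a1 (32.9 and 23.2 against 114.1 and 89.8 CPM), while the cluster led by Sct stays between 15.6 and 20.7 CPM.

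The steroidogenic markers of theca-like cells moved with Bmp6. Their list of 8 summed to 15732, 14880, 6349 and 5161 CPM. Cyp17a1 was 1878, 1785, 336 and 136 CPM, and Insl3, a theca hormone, 78.1, 58.3, 12.9 and 17.0 CPM. Star, which carries cholesterol into mitochondria, was 422, 305, 385 and 314 CPM and did not follow that order. The stroma list in these cells summed to 746, 847, 1392 and 1332 CPM, and the granulosa list to 551, 557, 334 and 362 CPM. Median depth was 20208.5, 23854, 14296 and 12792 UMIs, and the median log2 ratio of the stress list was 0.58 for AMH over control and 0.24 for doxorubicin+AMH over doxorubicin. Their part in the Bmp6 ratio was not tested. Txndc5, the opposite-strand gene whose span overlaps exons of Bmp6, was 81.7, 86.2, 53.2 and 50.01 CPM. 4930579J19Rik, an antisense gene within the span of Bmp6, had 18, 13, 1 and 2 UMIs.

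Bmp2 in theca-like cells was 1.26-fold higher (1.19 to 1.34) in doxorubicin+AMH than in doxorubicin and 0.802-fold (0.755 to 0.852) in AMH over control. Over the whole type the 2 AMH ratios pointed in opposite directions. In the Sct cluster they did too, at 1.62 (1.46 to 1.79) and 0.785 (0.710 to 0.867). In the Cyp17a1 cluster they were 1.67 (1.40 to 1.97) and 1.07 (0.875 to 1.31). In the Prss35 cluster they were 1.27 (0.736 to 2.39) and 1.29 (0.696 to 2.69). The part of cell makeup was not tested. Bmp7 lay between 4.92 and 6.46 CPM, with every one of the 4 ratio intervals including 1. Bmp4 was 3.32, 2.23, 3.33 and 2.89 CPM. In the Sct cluster Bmp7 was higher than in the other theca-like clusters, at 20.8, 18.9, 8.16 and 12.8 CPM.

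In stroma-like cells none of the 4 members that passed the mean reached 2-fold, where 0.366%, 0.375%, 0.304% and 0.59% of all genes tested did in the 4 contrasts, in the order in which the contrasts are listed above. Bmp2 was 34.3, 31.2, 46.6 and 59.1 CPM, higher with AMH by 1.73-fold (1.59 to 1.87) and 1.496-fold (1.37 to 1.63). Bmp7 was higher with AMH by 1.52-fold (1.32 to 1.76) and 1.65-fold (1.42 to 1.93). Both libraries with AMH lay above both without it for each of these ligands. With each cell weighted equally Bmp7 in doxorubicin+AMH over doxorubicin passed 2-fold (log2 difference 1.04), and with each library clustered alone its AMH over control difference dropped to 0.13. Bmp4 was 0.689-fold (0.619 to 0.766) in doxorubicin over control and 0.855-fold (0.764 to 0.956) in doxorubicin+AMH over AMH. The granulosa list in these cells summed to 343, 364, 457 and 511 CPM, and the mural list to 597, 549, 886 and 773 CPM, higher in both libraries with AMH as Bmp2 and Bmp7 were, with all 8 genes of each list detected in every library. The stroma list itself summed to 9179.7, 8751, 6951 and 8617 CPM, and the part of these values in the ratios was not tested.

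Stroma-like cells held 5 clusters with at least 50 cells in every library. Bmp2 was higher in AMH than in control in 5 of 5, and higher in doxorubicin+AMH than in doxorubicin in 4 of 5. The largest AMH over control ratio was in the cluster led by Cxcl14, at 17.8, 14.4, 30.8 and 45.6 CPM, with ratios of 2.56 (2.08 to 3.15) and 2.13 (1.68 to 2.72). Both were called, against 0.932% and 0.724% of all genes tested. In the cluster led by Grin2b Bmp7 was 6.80, 7.51, 17.9 and 15.2 CPM, 2.23-fold (1.62 to 3.10) and 2.38-fold (1.75 to 3.28) higher with AMH, where 0.531% and 0.376% of genes were called.

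The fibroblast-type cluster led by Clec3b and Dpt differed in the doxorubicin library. There Bmp7 had 50, 3, 19 and 31 UMIs, 13.5, 0.923, 12.5 and 9.94 CPM, a ratio of doxorubicin to control 14.7-fold lower with a wide counting interval (4.73 to 73.5). Bmp4 was 35.2, 12.9, 29.5 and 23.7 CPM, 2.72-fold lower (1.91 to 3.95) in doxorubicin than in control. In this cluster 7.63% of all genes tested were called in that contrast and 10.4% in doxorubicin+AMH over doxorubicin, so large ratios were common there.

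In mural smooth muscle-like cells Bmp2 was 19.4, 13.0, 15.6 and 30.7 CPM. It was 0.669-fold (0.536 to 0.831) in doxorubicin over control and 0.509-fold (0.428 to 0.605) in doxorubicin+AMH over AMH. Over the whole type both libraries with doxorubicin lay below both without. In the 2 clusters with at least 50 cells in every library, doxorubicin over control was 0.773-fold and 0.885-fold, both intervals including 1. Doxorubicin+AMH over AMH was 0.469-fold and 0.659-fold there, with 1 interval below 1. In the cluster led by Acta2, given below, doxorubicin+AMH lay above control. Nog had 48, 10, 43 and 46 UMIs, 3.38, 1.07, 3.48 and 3.25 CPM, lowest in doxorubicin, 3.17-fold lower (1.58 to 7.03) than in control and below the mean of 5 CPM. Chrdl1 was lower with AMH, by 0.709-fold (0.601 to 0.834) and 0.766-fold (0.635 to 0.925), opposite to its ratios in granulosa-like cells. The mural cluster led by Des held 203, 21, 59 and 190 cells.

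A look at the 2 other mural clusters was added after their values were seen. In the cluster led by Acta2 Bmp2 was 14.7, 11.4, 15.4 and 32.9 CPM, 2.23-fold higher (1.84 to 2.72) in AMH than in control and 2.13-fold lower (1.77 to 2.57) in doxorubicin+AMH than in AMH, where 0.42% and 0.177% of genes were called. The cluster led by Rgs5, a pericyte gene, had the highest Bmp6 of the mural clusters, at 51.8, 40.2, 23.1 and 39.8 CPM on 58, 37, 13 and 25 UMIs. Bmp5 also appeared there, at 12.5, 25.0, 19.5 and 6.37 CPM on 14, 23, 11 and 4 UMIs.

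Blood endothelial-like cells gave the sparsest call. Bmp6 had 23, 41, 3 and 15 UMIs in 183, 126, 66 and 95 cells, or 5.37, 14.8, 2.47 and 5.27 CPM. It passed the mean only through the doxorubicin library, and these levels overlap those of erythroid-like cells. It was 2.75-fold higher (1.61 to 4.81) in doxorubicin than in control, where 0.507% of all genes tested were at least 2-fold higher. With a pseudocount of 5 CPM that log2 difference was 0.93 and with each cell weighted equally 0.35, so the call was lost. The ratio of doxorubicin+AMH to doxorubicin, from 3 UMIs, was 5.98-fold lower with an interval of 1.91 to 30.2, and 2.69% of genes were at least 2-fold lower. Mural markers in these cells summed to 688, 632, 1192 and 1188 CPM, and stroma markers to 605, 244, 537 and 1002 CPM. Erythroid markers summed to 16.1, 1325, 17.3 and 323 CPM, highest in doxorubicin as Bmp6 was. Their part in the ratio was not tested. In macrophage-like cells Bmp2 was the only member that passed the mean, at 55.8, 43.1, 41.2 and 39.8 CPM, with no called ratio, where 9.08%, 7.91%, 5.32% and 11.9% of genes were called.

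The rest of the pathway was taken as 5 lists with 59 genes, counted as for the members. Of 217 gene and type pairs tested over the 6 cell types 3 were called in doxorubicin over control (1.38%), 6 in doxorubicin+AMH over AMH (2.76%), 23 in AMH over control (10.6%) and 16 in doxorubicin+AMH over doxorubicin (7.37%), beside the same backgrounds of 1.99%, 2.28%, 2.92% and 4.26%. Among the 8 BMP/SMAD targets in theca-like cells 6 passed the mean (Id1, Id2, Id3, Smad6, Smad7 and Bambi), and these were at least 2-fold higher in both AMH contrasts, where 3.38% and 2.96% of all genes tested were. Smad6, an inhibitory SMAD, was 2.37, 2.18, 22.4 and 26.0 CPM and passed the mean only through the libraries with AMH, so it had to differ. The other 5 lay above 5 CPM in every library. Id1, Id2 and Id3 encode inhibitors of transcription factors. Id1 was 46.4, 56.2, 141 and 155 CPM. Id2 was 79.8, 64.3, 199 and 228 CPM, and Id3 59.2, 74.6, 485 and 527 CPM. Each was higher in both libraries with AMH than in both without. Smad7, also an inhibitory SMAD, was 14.96, 13.7, 51.6 and 60.4 CPM, and Bambi, a decoy receptor, 28.7, 31.2, 74.9 and 74.96 CPM.

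In granulosa-like cells all 8 targets passed the mean, with median log2 differences of 0.65 and 0.45 beside -0.08 and -0.06 over all genes. Of these Smad6 was called in AMH over control, at 30.7, 33.7, 64.7 and 96.5 CPM. Smad7, also inhibitory, was 88.2, 92.7, 145 and 140 CPM and was not called. In stroma-like and mural smooth muscle-like cells all 8 targets passed and none was called in either AMH contrast. Their medians for AMH over control were -0.16 and -0.30, beside -0.08 and -0.06 over all genes. For doxorubicin+AMH over doxorubicin they were 0.01 and -0.06, beside -0.03 and -0.04. In AMH over control Id1 was called lower in blood endothelial-like cells and Smad7 higher in macrophage-like cells (backgrounds 1.8% lower and 2.32% higher). Neither call recurred in doxorubicin+AMH over doxorubicin, where Bambi was called lower in macrophage-like cells (background 6.63% lower). In those cells Smad7 was also called higher in doxorubicin over control (3.23% higher). Id1 and Bambi were called lower there in doxorubicin+AMH over AMH (5.35% lower). Scaling by median-of-ratios size factors moved all granulosa-like log2 differences of AMH over control up by 0.12, and those of the other contrasts and types by at most 0.10.

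Among other ligands, Amh itself was called lower in granulosa-like cells in both AMH contrasts, at 140, 201, 71.3 and 43.3 CPM with log2 differences of -1.67 and -1.48. In these cells 0.81% and 1.23% of all genes tested were at least 2-fold lower in those contrasts. The granulosa-like cluster led by Amh held 3, 82, 0 and 1 cells, and the one led by Cdh12 355, 298, 168 and 250. The part of this cell makeup in the Amh ratios was not tested. Bmp3 was 48.2, 42.6, 28.9 and 28.4 CPM. The other 10 ligands of the list did not pass the mean in granulosa-like cells, and none of the 12 did in theca-like cells. Of the receptor list 10 of 13 passed in granulosa-like and 11 of 13 in theca-like cells, and none was called in any contrast. In granulosa-like cells the type II receptors Bmpr2 and Amhr2 were 731, 573, 680 and 758 CPM, and 121, 136, 96.9 and 104 CPM. The co-receptor Rgma was 7.04, 5.82, 4.39 and 5.15 CPM. In theca-like cells the rule named Rgma and Neo1 as higher with AMH, at 4.24, 4.61, 8.02 and 8.56 CPM and 65.7, 56.5, 86.9 and 91.3 CPM. It named Acvrl1 and Acvr2a as lower, at 6.68, 9.01, 5.02 and 4.196 CPM and 33.4, 30.2, 26.2 and 26.7 CPM.

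Of 17 other extracellular regulators 9 passed the mean in granulosa-like cells and none was called. Bmper, a BMP-binding protein, was 41.5, 46.1, 62.4 and 69.7 CPM there. Bmp1, a protease that cleaves chordin, was 27.6, 28.6, 19.4 and 21.8 CPM. In theca-like cells 8 passed. Nbl1, a secreted BMP antagonist, was called higher in both AMH contrasts, at 18.5, 16.3, 37.1 and 41.3 CPM. Fst, the activin and BMP binder follistatin, was called higher in AMH over control. That call was not particular to theca-like cells. Fst was also called higher in this contrast in stroma-like, mural smooth muscle-like, blood endothelial-like and macrophage-like cells, but not in granulosa-like cells. Crim1, a membrane BMP binder, was called lower in theca-like cells in AMH over control, at 173, 139, 70.6 and 84.3 CPM. Twsg1, a chordin partner, was 28.2, 26.9, 44.9 and 51.6 CPM, and Dand5, an antagonist, 31.4, 34.8, 21.0 and 31.2 CPM.

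Of 9 signal transducers all passed in granulosa-like cells. Smad9, a receptor SMAD, was called higher in AMH over control at 6.49, 6.61, 10.3 and 15.1 CPM, with log2 differences of 1.11 and 0.57. Smad5 was 38.4, 33.6, 29.8 and 35.0 CPM, and Smurf2, a ubiquitin ligase for SMADs, 94.5, 82.0, 77.0 and 87.3 CPM. In theca-like cells 8 passed and none was called. Tob1, a repressor of SMAD signalling, was 174, 163, 84.8 and 94.0 CPM, and Smad1 29.9, 23.4, 39.1 and 38.2 CPM. Ski, another repressor, was 64.0, 59.7, 89.2 and 79.5 CPM, and Smurf1 27.9, 26.4, 24.3 and 25.2 CPM.

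The genes whose pattern was most like each member were found by Pearson's r of log2(CPM + 1) over 24 sums (6 cell types in 4 libraries) among 13639 genes. The sums of 1 library share its depth and handling, and r is a description. For Grem1 they were Otor (0.97), Vwa5b1 (0.96) and Cnnm1 (0.95). For Chrdl1 they were Adamts6 (0.97), Fhl1 (0.96) and Foxp2 (0.95), and for Nog Mapk10 (0.90), Prkab2 (0.90) and Mmp23 (0.89). Bmp2 was nearest to Hsd3b1, Cst8 and Clint1 (0.87 each), of which Hsd3b1 is a steroid-synthesis enzyme and a theca marker. Bmp4 was nearest to Tubb4a (0.96), Nid1 (0.95) and Adamts12 (0.95), and Bmp7 to Enpep (0.94), Ier2 (0.93) and Dio2 (0.91). Bmp6 was nearest to Aifm1 (0.94), Prdx6 (0.93) and Atp5b (0.93), which encode a mitochondrial flavoprotein, a peroxidase and an ATP synthase subunit. For the sparse Bmp5 the nearest were Syf2 (0.90), Ano10 (0.89) and 9330175M20Rik (0.88).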

How the data were processed

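The deposited matrices give, for each cell barcode, raw UMI counts of every gene, and per the file headers Cell Ranger 7.0.0 made them. Per the submitters' processing notes the build was mm10, and R 4.2.0 and Seurat 4.1.0 were used. Whether intronic reads or strand entered the counting is not given in the sources used here. Barcodes under 1000 UMIs or above 20% mitochondrial UMIs were dropped. A doublet score was computed within each library from simulated cell pairs, in the manner of Scrublet, and the highest scores were removed at 0.8% per 1000 cells (590, 328, 390 and 584 cells, in the order used above), leaving 7998, 6078, 6593 and 7962 cells. All libraries entered 1 clustering with no batch correction. It used 2000 variable genes, none of them among 86 genes that include the members and pathway lists, 30 principal components (scikit-learn 1.9.0) and 20 neighbours. The Leiden algorithm (leidenalg 0.10.2 with igraph 0.11.9) ran at a resolution of 1.0. A cluster was named "-like" when at least 3 markers and 60% of a list were found in at least 10% of its cells and exceeded the median cluster by 1 or more on the log2 scale. A cluster with under 33.3% of its libraries' median UMIs and no marker among its 10 leading genes stayed unnamed. Counts were summed per type and library (numpy 2.4.6, scipy 1.17.1, pandas 2.3.3) as CPM, with exact Poisson intervals for levels, Clopper-Pearson intervals for shares and exact conditional binomial intervals for ratios. The calculations were checked on simulated counts. Droplets can hold free RNA, so erythroid-like values are given beside the Bmp2, Bmp6 and Grem1 values.

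Members and lists were chosen with earlier results of these data known. The genes named are the 8 members, the 3 genes most like each, and up to 2 of each pathway list in either direction in granulosa-like and theca-like cells, by the AMH ratio closer to 0. Other genes named (called pathway genes, markers, leading genes of clusters) were chosen after their values were seen. Some results under this rule are not reported here.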

Additional observations from a re-analysis of the deposited data

Results flagged for a closer look

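Bmp7 differed in direction between clusters for doxorubicin+AMH over doxorubicin. Its log2(CPM + 1) difference was 1.15 in the stroma-like cluster led by Grin2b and 2.81 in the one led by Clec3b, the latter from 3 UMIs in doxorubicin, and -1.12 in the theca-like cluster led by Sct, with 57 UMIs in doxorubicin and 35 in doxorubicin+AMH. Each rests on 1 library per group, and the difference was not tested.

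Bmp4 in the theca-like cluster led by Sct had 46, 6, 32 and 18 UMIs in control, doxorubicin, doxorubicin+AMH and AMH, or 13.9, 1.99, 7.46 and 5.10 CPM. AMH over control was -1.28 on the log2(CPM + 1) scale, while doxorubicin+AMH over doxorubicin was 1.50. The AMH ratio thus pointed in opposite directions with and without doxorubicin. Bmp4 passed the mean of 5 CPM here only through the control library, where it was highest, so it had to differ. The ratio of doxorubicin+AMH to doxorubicin rests on 6 UMIs in doxorubicin, and both ratios are descriptions. The difference was not tested.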

How the results depend on the processing

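No paired analysis was possible because each group is 1 library. The limits are 1 library per group, pooled animals, counting-only intervals, and cell types rebuilt from markers. Over 11 alternatives 702 of 744 recomputed ratios kept their sign, and 45 of 72 ratios kept it under every alternative run for them. The 42 changes of sign came mostly from each cell gated by its own markers (9), clusters with at least 50 cells in every library (8, chosen after the data were seen), doublets left in (7) and each cell weighted equally (7). With clusters of at least 50 cells, Bmp6 in theca-like cells was 0.20 for doxorubicin+AMH over doxorubicin, since a single cluster remained. Grem1 in granulosa-like cells ranged from 0.90 to 1.25 and from 1.10 to 1.46 in the AMH contrasts.

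Counts of called pairs follow in the order doxorubicin over control, doxorubicin+AMH over AMH, AMH over control, doxorubicin+AMH over doxorubicin, for members (1, 0, 2 and 3 as reported) and pathway genes (3, 6, 23 and 16). The pairs tested were 18 for members and 217 for pathway genes, and 17 to 20 and 217 to 225 under the alternatives other than the filters. Without a filter on low CPM 5, 4, 6 and 9 of 47 members and 15, 18, 35 and 33 of 325 pathway genes were called, beside 3.65%, 4.3%, 3.54% and 6.04% of all genes. With a filter at 20 CPM, which left 9 members and 157 pathway genes and called 0.713%, 0.856%, 1.75% and 2.24% of all genes, the members were 0 in doxorubicin over control and 1 in each AMH contrast, and the pathway genes 1 and 3 in the doxorubicin contrasts and 10 in doxorubicin+AMH over doxorubicin. A pseudocount of 5 CPM left 0 members and 1 pathway gene in doxorubicin over control, and 1 member in AMH over control. In doxorubicin over control there were also 2 members with doublets left in, 3 with gating, 2 with equal weights and 2 with clusters of at least 50 cells. Pathway genes there were 8 at no more than 10% mitochondrial UMIs, 11 with doublets left in, 6 with each library clustered alone, 8 with gating and 13 with equal weights. In doxorubicin+AMH over AMH there was 1 member at no more than 10% mitochondrial UMIs, with doublets left in, with each library clustered alone and with clusters of at least 50 cells, and there were 2 with gating and 2 with equal weights. Pathway genes there were 11 at no more than 10% mitochondrial UMIs, 18 with gating and 13 with equal weights. Gating gave 4 members in AMH over control, and equal weights gave 6 in doxorubicin+AMH over doxorubicin. All genes were called at 2.91%, 3.95%, 3.78% and 4.92% with gating, at 4.01%, 5.53%, 4.56% and 7.77% with equal weights, at 0.922%, 0.926%, 1.46% and 2.04% with the larger pseudocount, and at 1.94% to 4.55% under the others. Except for the stricter or absent filter and the larger pseudocount, the cause of these moves was not tested.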
